A study of Mus musculus with 4 samples.

Results

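The cells described here are dividing cells of the ovarian surface epithelium, the mesothelial sheet that covers the gonad, in XX mouse embryos at the embryonic stages E12.5, E13.5 and E14.5. They were chosen by measured transcripts. A cell had to have at most 1 of 6 germ cell genes (Dazl, Ddx4, Dnd1, Mael, Dppa5a and Mov10l1) above 0. It had to have Upk3b and at least 1 of Krt19, Krt7, Upk1b and Tm4sf5 above 0, with a mean over these 5 genes above that of 5 supporting cell genes (Fst, Wnt4, Wnt6, Irx3 and Runx1). It also had to have at least 3 of 5 cell cycle genes (Top2a, Cdk1, Birc5, Ccnb1 and 2810417H13Rik) above 0. In all, 1031 of 14471 cells of the 3 libraries met the rule, out of 19387 cells in the series. They were 534 cells at E12.5 (11% of the library, exact Clopper-Pearson 95% interval 10.2 to 11.9%), 280 in the E13.5 library (5.78%, 5.14 to 6.48%) and 217 in the E14.5 library (4.53%, 3.96 to 5.16%).

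The series profiled gonads of C57BL/6 XX embryos with single-cell 3′ RNA libraries made in droplets (10x Chromium, kit V2) after a short digestion with TrypLE, a trypsin-like enzyme. Each stage was 1 library, and no genetic change or treatment is named for any group. How many embryos or litters went into a library is not given in the sources used here. Stage and library therefore cannot be told apart, no difference between stages could be tested against the spread between replicates, and the intervals below cover counting error only. Cells meeting the rule in the E11.5 library (645 of 4916) are given only as a description of an earlier stage.

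The surface epithelium of the fetal gonad arises from the coelomic epithelium of the genital ridge. It is a layer of keratin-bearing, polarised mesothelial cells that divides while the ovary grows, and some of its descendants are known to move inward and to join the supporting cells that surround the germ cells. A dividing cell copies its DNA in S phase, with enzymes of nucleotide supply and replication licensing, and then passes through G2 into mitosis (M), when kinesins, kinases and the ubiquitin ligase of anaphase are made. Cyclin-dependent kinase inhibitors such as Cdkn1a and Cdkn1c hold cells in the gap phase before S (G1).

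Unique molecular identifiers (UMIs), which count captured transcripts, had a median per selected cell of 14789, 15025 and 12554 in stage order, and came to 8514474, 4583306 and 2993525 in all selected cells of a library. The lowest UMI total of any cell differed between libraries, at 9791, 5407 and 7854. A doublet caller marked 17 of the 1031 cells (1.65%). Over the series, 354 cells carried a barcode that recurred in another library, and 22 of them were selected cells. The E14.5 library went against its label in 1 respect: 45 of its 217 selected cells had a UMI of a Y-linked gene, against 0 of 534 at E12.5 and 0 of 280 at E13.5. The counts over all genes and over the lists were therefore also made without the cells with a Y-linked UMI and, where libraries are compared within themselves, without the E14.5 library. The 45 cells held 76 Y-linked UMIs in all, so a cell without one may have been missed. Leaving out the cells with one therefore does not test the XX label.

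The rule itself set the cell cycle genes, so their values are a description. 2810417H13Rik, which encodes a PCNA-associated factor of replicating DNA, had a UMI in 99.4%, 97.1% and 98.6% of the selected cells in stage order, and Top2a, the topoisomerase of mitotic chromosomes, in 94.9%, 90.4% and 94.9%. Ccnb1, the cyclin of mitotic entry, had one in 71.7%, 73.9% and 74.2%. Most of the cells stood well inside the threshold. Of all surface epithelial cells, 611 had all 5 cycle genes, 248 had 4 and 172 had the required 3, whereas 223 had 2 and stood just outside. For the other condition, the mean of the surface genes lay within 0.1 natural-log units above that of the supporting genes in 53 cells, and 34 cells stood just as close below.

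The surface genes of the selection had to be detected, so their levels are a description. Levels are counts per 1000000 UMIs (CPM) summed over the cells of a library. Upk3b, a uroplakin of mesothelium, stood at 344, 371 and 430 CPM in stage order, and Tm4sf5, a tetraspanin-like membrane protein, at 155, 166 and 172 CPM. Krt19, a keratin of simple epithelia, stood at 80.1, 106 and 220 CPM. Tmem151a, a membrane protein that the rule did not use but that was proposed as a marker with these data known, stood at 76.3, 97.1 and 78.8 CPM, against 17.1, 19.8 and 11.2 CPM over all cells of the libraries.

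Markers that the rule did not use bore the label out in part. Of 16 further surface epithelial markers, Aldh1a2, the main retinoic acid synthesising enzyme of mesothelium, stood at 163, 162 and 169 CPM against 45.0, 44.4 and 30.1 CPM over all cells. Lrrn4, a leucine-rich repeat protein of mesothelium, stood at 43.9, 54.5 and 45.8 CPM against 11.8, 13.9 and 11.3 CPM. Msln, mesothelin, was near 0, at 0.235, 0.436 and 2.0 CPM. The uroplakins Upk2 and Upk3a had 0 UMIs, which allows up to 0.352, 0.655 and 1.00 CPM (3 UMIs of each sum). Cdh1, the classical epithelial cadherin, had 0 UMIs at E12.5 and E13.5 and 0.668 CPM at E14.5, while Cdh2, N-cadherin, stood at 58.7, 39.5 and 43.1 CPM and Cdh3, P-cadherin, at 38.5, 43.4 and 41.4 CPM.

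Germ cell, immune, endothelial, mesonephric and neural markers summed to less in the selected cells than over their library at every stage, and the lists of other types did not do so throughout. The 8 germ cell markers summed to 9.0, 15.9 and 49.4 CPM in the selected cells against 485, 549 and 2266 CPM over all cells, and the 8 immune markers to 3.41, 7.42 and 11.7 CPM against 88.6, 137 and 120 CPM. The 11 supporting cell markers summed to 398, 430 and 560 CPM against 668, 549.7 and 331 CPM, so that they stood above the library at E14.5. The 6 steroidogenic markers summed to 7.75, 8.51 and 16.0 CPM against 14.4, 15.3 and 12 CPM, also above it at E14.5. The 7 mesonephric markers summed to 22.0, 22.5 and 45.4 CPM against 68.5, 58.2 and 84.2 CPM, and the 6 neural markers to 9.04, 9.82 and 5.01 CPM against 17, 17 and 15.8 CPM. Few markers of these lists were at 0 UMIs in all 3 libraries. They were 1 of the 11 supporting markers (Foxl2, the factor of granulosa cells) and 1 of the 6 steroidogenic markers (the Leydig cell hormone Insl3). They were also 3 of the 7 mesonephric markers, with Cdh16 and Lhx1, and 2 of the 6 neural markers, with the neural crest factor Sox10. The other markers of these 4 lists had UMIs in at least 1 library. The 12 interstitial markers stood above the library at every stage. They summed to 1099, 1647 and 1642 CPM in the selected cells, against 467, 846 and 601 CPM over all cells, led by Dlk1, Dcn, Ptn and Col3a1. The 8 endothelial markers summed to 79.3, 87.1 and 78.2 CPM against 201, 151 and 93.6 CPM. The 6 perivascular markers summed to 31.7, 57.2 and 160 CPM against 43.3, 64.5 and 61.2 CPM, above the library at E14.5 through Acta2. Erythroid markers summed to 1875, 982 and 14468 CPM. At E14.5, 8 of the 217 cells held over 1% erythroid UMIs each and carried 92.5% of that sum.

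A smaller share of the surface epithelium was cycling at E13.5 and E14.5 than at E12.5. At E12.5, 534 of 809 surface epithelial cells were cycling, 66.0% (exact Clopper-Pearson 95% interval 62.6 to 69.3%). At E13.5 the share was 42.6% (38.7 to 46.4%) of 658 cells, and at E14.5 it was 38.3% (34.3 to 42.4%) of 567 cells. The intervals of E13.5 and E14.5 overlapped, and that of E12.5 lay above both. Among the 875 surface epithelial cells at E11.5 the share was 73.7%.

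The number of UMIs per cell bears on these shares, because a cycle gene is missed more often in a shallow cell. With the cycle genes counted after thinning every cell to 5000 UMIs, the shares were 53.0%, 33.3% and 32.8%, in the same order. When only cells with at least 9791 UMIs were kept, the highest of the libraries' lowest totals, they were 66.0%, 49.1% (44.7 to 53.5%) and 52.7% (47.2 to 58.2%), so that E14.5 no longer lay below E13.5. With both the thinning and this minimum, the shares were 53.0% (49.5 to 56.5%), 38.5% (34.3 to 42.8%) and 45.8% (40.3 to 51.3%). The intervals of E12.5 and E14.5 then overlapped. E12.5 had the highest share under each of these choices. Cycling supporting cells were a smaller share of their type throughout, at 7.19%, 3.50% and 7.98% after thinning. For those cells E14.5 was not below E12.5.

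**Figure D1:**
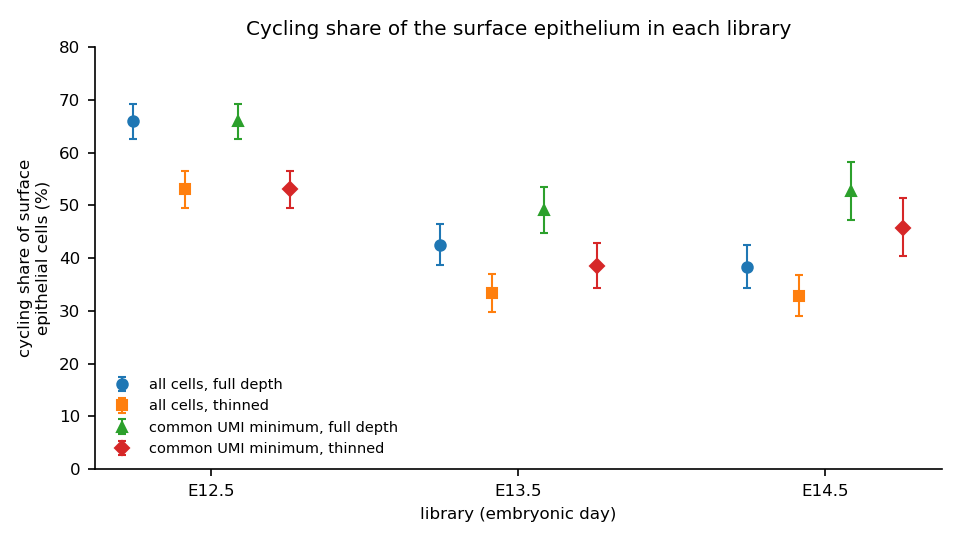
Cycling share of surface epithelial cells (%, y axis) in the E12.5, E13.5 and E14.5 libraries (x axis), at full depth and thinned to 5000 UMIs, for all cells and for cells with at least 9791 UMIs; points are shares and bars exact 95% intervals. Among these 3 libraries E12.5 lies highest in every version (66.0% at full depth), and the order of E13.5 and E14.5 turns with the common minimum (49.1% and 52.7%).

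The selected cells varied widely in their sums of S phase and G2/M genes. Ccnb1 and 2810417H13Rik are genes of the selection, so their joint detection is a description. They were found together in 71.5%, 71.4% and 72.8% of the cells at full depth and in 44.8%, 43.6% and 50.7% after thinning to 5000 UMIs. 2810417H13Rik without Ccnb1 was found in 27.9%, 25.7% and 25.8% at full depth and in 48.1%, 47.9% and 40.6% after thinning. The median sum of the 49 G2/M genes was 75.9, 69.2 and 80.2 UMIs per 10000, against 15.5, 11.2 and 12.7 in non-cycling surface epithelial cells. At E12.5 it ranged between cells from 21.5 at the 5th percentile to 167 at the 95th. The 44 S phase genes summed to a median of 36.5, 28.9 and 35.7 UMIs per 10000, against 26.5, 17.7 and 19.6 in non-cycling cells. The S phase sums of the 2 groups were closer to each other than the G2/M sums. The selection used Top2a and Ccnb1, genes of mitosis, and their part in this was not tested.

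The 1003 surface epithelial cells with fewer than 3 cycle genes (275, 378 and 350 in stage order) were set against the selected cells within each library. A gene counted as higher or lower by a rule of size. It needed at least 50 UMIs over both groups, at least 20 CPM in the higher group, a ratio of at least 2 and exact Poisson 95% intervals that did not overlap. Of 5201 genes that could be tested in all 3 libraries, 172 were higher in the cycling cells in all 3 (3.31%) and 1 was lower in all 3 (0.0192%). Without the cells with a Y-linked UMI, 172 were higher and 2 lower, and in the 2 earlier libraries alone 178 of 5347 were higher (3.33%) and 2 lower (0.0374%). Within single libraries 3.77%, 4.03% and 4.86% of the genes tested were higher and 0.175%, 0.302% and 0.922% lower. The 21 genes of the selection rule are left out of every count. The selection rests on this contrast, so the counts describe what came along with the 5 chosen cycle genes. Cycling cells were also deeper, since the non-cycling cells had median totals of 11932, 11027.5 and 9572.5 UMIs. How far depth moves these ratios was not tested. Selecting the cells on thinned UMIs, with the sums still at full depth, left the higher count within 1.5 times.

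Nearly all genes of the G2/M list were higher in the cycling cells: 42 of 47 tested in all 3 libraries, as also without the E14.5 library or without the cells with a Y-linked UMI, with medians of 3.79, 4.15 and 4.17 on the log2 scale. Over all genes tested, the median log2 ratios were 0.01, 0.03 and 0.02. Hmgb2, a chromatin protein of proliferating cells, stood at 1675, 1644 and 1734 CPM in cycling cells and at 304, 233 and 256 CPM in non-cycling cells. Cks1b, a small subunit of cyclin-dependent kinases, stood at 595, 583 and 567 CPM against 220, 171 and 172 CPM. Ube2c, the ubiquitin-conjugating enzyme of anaphase, stood at 589, 513 and 577 CPM against 16.0, 14.2 and 13 CPM. In each of these genes every cycling value lay above every non-cycling value.

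S phase genes parted the groups less, in cells that were split by genes including Top2a and Ccnb1 of mitosis. Of 39 tested in all 3 libraries, 12 were higher in the cycling cells and 0 were lower, with medians of 0.47, 0.71 and 0.82 on the log2 scale. Rrm2, a ribonucleotide reductase subunit, stood at 202, 156 and 208 CPM in cycling cells against 57.0, 30.4 and 33.8 CPM in non-cycling cells. Tyms, thymidylate synthase, stood at 178, 153 and 169 CPM against 71.3, 58.4 and 63.7 CPM. Mcm2, a subunit of the replicative helicase that is loaded before S phase begins, went the other way in level, at 61.2, 50.4 and 66.8 CPM against 89.6, 73.5 and 68.6 CPM, without passing the rule. Its log2 ratios were -0.55, -0.54 and -0.04.

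Of the 172 genes, 54 belonged to the S and G2/M lists, and the 12 with the largest smallest ratio outside those lists were Fam64a, Casc5, Aspm, Depdc1a, Mxd3, Kif4, Prc1, Plk1, Ncapg, Ccna2, Arhgap11a and Cdca5. Most of these are known from chromosome condensation, the spindle or cytokinesis. Prc1, which bundles microtubules at the spindle midzone, stood at 181, 117 and 205 CPM in cycling cells against 3.15, 2.52 and 6.64 CPM in non-cycling cells. Plk1, the polo-like kinase of mitosis, stood at 78.5, 75.1 and 102 CPM against 2.58, 2.06 and 2.21 CPM. Ccna2, cyclin A2 of S phase and G2, stood at 152, 154 and 145 CPM against 5.44, 5.03 and 3.04 CPM. The other 9 ranged from 26.6 to 76.4 CPM in cycling cells and from 0 to 1.94 CPM in non-cycling cells.

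Promoters are shown for 4 of these genes, because many genes of G2 and mitosis are known to be controlled through a pair of short elements near the start of transcription. The cell cycle genes homology region (CHR) was searched as TTTGAA or TTCGAA and the CCAAT box as CCAAT, each on both strands, in the 250 bases before and 50 bases after the start. Capitals mark the matches, and a CHR on the other strand reads TTCAAA. Sequences are from RefSeq on GRCm38.p6, read 5′ to 3′ on the strand of the gene. Hmgb2 lies at chr8:57511593-57511892 (+ strand), Cks1b at chr3:89418242-89418541 (- strand), Prc1 at chr7:80294201-80294500 (+ strand) and Plk1 at chr7:122159185-122159484 (+ strand). They are the 2 genes of the G2/M list and the 2 of the 12 named genes with the highest summed level that held both motifs.
Hmgb2: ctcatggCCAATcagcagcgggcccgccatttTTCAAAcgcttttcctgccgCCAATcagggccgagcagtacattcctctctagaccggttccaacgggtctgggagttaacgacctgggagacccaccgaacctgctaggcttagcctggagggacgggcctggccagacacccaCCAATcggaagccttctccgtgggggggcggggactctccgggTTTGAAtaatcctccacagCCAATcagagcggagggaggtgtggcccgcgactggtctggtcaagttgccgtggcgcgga
Cks1b: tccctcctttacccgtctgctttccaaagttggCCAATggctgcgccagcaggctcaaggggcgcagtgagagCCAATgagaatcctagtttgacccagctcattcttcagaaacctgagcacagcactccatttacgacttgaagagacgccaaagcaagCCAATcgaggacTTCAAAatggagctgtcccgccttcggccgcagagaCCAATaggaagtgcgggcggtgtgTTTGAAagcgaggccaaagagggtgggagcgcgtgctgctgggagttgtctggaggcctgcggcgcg
Prc1: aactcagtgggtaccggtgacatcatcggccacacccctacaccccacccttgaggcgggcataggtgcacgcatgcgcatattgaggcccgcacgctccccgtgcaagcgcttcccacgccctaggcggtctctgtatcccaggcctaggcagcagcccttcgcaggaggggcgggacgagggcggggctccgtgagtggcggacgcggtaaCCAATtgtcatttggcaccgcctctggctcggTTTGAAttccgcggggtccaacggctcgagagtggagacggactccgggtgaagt
Plk1: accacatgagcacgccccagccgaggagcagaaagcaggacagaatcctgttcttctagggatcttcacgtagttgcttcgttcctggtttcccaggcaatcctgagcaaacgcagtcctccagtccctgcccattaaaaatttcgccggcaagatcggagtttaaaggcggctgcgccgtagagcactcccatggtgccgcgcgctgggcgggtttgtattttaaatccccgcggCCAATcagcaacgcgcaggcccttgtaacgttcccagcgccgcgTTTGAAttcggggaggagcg

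In these windows Hmgb2 and Cks1b each held 2 CHR and 4 CCAAT matches, and Prc1 and Plk1 held 1 of each. The CHR of Prc1 began 5 bases before the start, and that of Plk1 at base 31 after it. Over all 27025 promoters of the same length, 19.4% held a CHR match, 37.9% a CCAAT match and 7.70% both. Of the 172 genes higher in cycling cells, 140 had a promoter in the table, and 58.6%, 69.3% and 46.4% of them held a CHR, a CCAAT box and both. Of the 5201 genes tested, 4243 had a promoter, and the shares were 14.8%, 40.1% and 6.46%. On the G2/M list the shares were 75%, 77.3% and 61.4% of 44 promoters. A match is a run of letters and says nothing of what binds there in these cells.

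The summed surface markers stood somewhat lower in cycling than in non-cycling cells, by less than the ratio of 2, while the median marker stood close to even. The 16 surface epithelial markers summed to 738, 847 and 1118 CPM in cycling cells against 835, 983 and 1441 CPM in non-cycling cells. The 8 keratins and uroplakins outside the selection, some of which are in both lists, summed to 210, 251 and 532 CPM against 276, 367 and 791 CPM. In each library the intervals of the sums did not overlap. Of the 10 surface markers tested in all 3 libraries, 0 passed the rule in either direction, where 3.31% of all genes were higher and 0.0192% lower, and the list medians were -0.12, -0.07 and -0.00. The 15 factors of the early gonad likewise had 0 past the rule. Wt1, a zinc finger factor that the gonad needs to form, stood at 520, 570 and 448 CPM in cycling cells against 505, 586 and 417 CPM in non-cycling cells. Lhx9, a LIM homeobox factor of the gonadal epithelium, stood at 490, 513 and 393 CPM against 490, 514 and 466 CPM. Lists of Wnt signalling (10 genes), BMP and TGF-beta signalling (8), cell junctions and polarity (9), keratins and uroplakins (2), retinoid metabolism (5) and the interstitium (9) also had 0 genes past the rule in all 3 libraries. A gene that misses a ratio of 2 may still differ. Krt8 and Krt18, the keratin pair of simple epithelia, had log2 ratios of -0.60, -0.52 and -0.57 and of -0.36, -0.64 and -0.66.

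**Figure D2:**
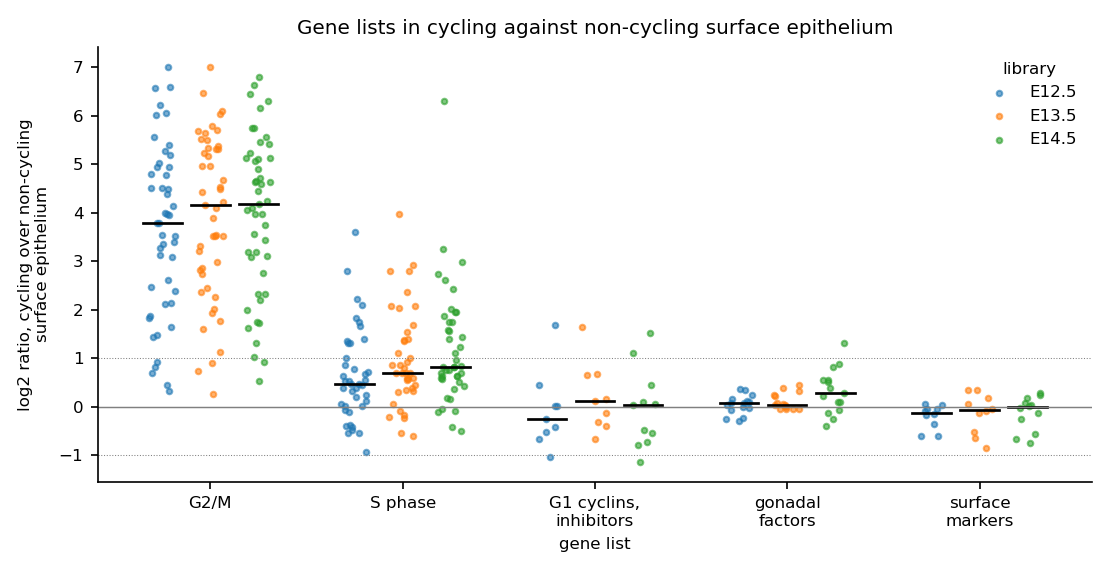
Log2 ratio of cycling over non-cycling surface epithelium (y axis) for the tested genes of 5 lists (x axis), with 1 point per gene and library and bars at the medians; dotted lines mark a ratio of 2 in each direction. The G2/M medians lie at 3.79 to 4.17, the S phase medians at 0.47 to 0.82, and the medians of the gonadal factors and surface markers at -0.12 to 0.28.

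G1 regulators differed among themselves. Cdkn2d, an inhibitor of Cdk4 and Cdk6, was the only 1 of 9 tested to be higher in cycling cells in all 3 libraries, at 33.4, 36.4 and 62.1 CPM against 10.3, 11.7 and 21.6 CPM. Cdkn2c, its close relative, stayed below the 20 CPM of the rule, at 7.87, 10.5 and 18 CPM against 0, 0.229 and 0.554 CPM. Ccnd2, cyclin D2 of G1, lay below the non-cycling level in each library, at 187, 225 and 345 CPM against 382, 357 and 593 CPM, and passed the rule at E12.5 alone. Cdkn1c, the inhibitor p57, stood at 616, 677 and 1195 CPM against 819, 891 and 1728 CPM, with log2 ratios of -0.41, -0.40 and -0.53. Cdkn1a, the inhibitor p21, had ratios of -1.08, -0.60 and -1.14.

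The single gene that was lower in cycling cells in all 3 libraries was Gng13, a gamma subunit of G proteins. It stood at 21.6, 64.8 and 277 CPM in cycling cells and at 49.5, 182 and 728 CPM in non-cycling cells. The log2 ratios were -1.20 (95% interval -1.50 to -0.89), -1.49 (-1.69 to -1.30) and -1.39 (-1.51 to -1.28). A UMI of Gng13 was found in 8.05%, 21.1% and 49.3% of cycling cells and in 15.3%, 31.2% and 81.7% of non-cycling cells after thinning. Endothelial cells, which should lack it, had one in 14.7%, 34.1% and 37.7% at full depth, against 21.2%, 40.7% and 68.2% of cycling cells. At E12.5 and E13.5 the share in the cycling cells was thus near that of endothelial cells, and at E14.5 it stood well above. Over all cells Gng13 stood at 191, 325 and 262 CPM.

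The next comparison set the selected cells against cycling supporting cells of the same library. These were chosen with the same germ cell and cycle conditions, a supporting mean above the surface mean and at least 3 of the 5 supporting genes above 0, leaving out cells that carried erythroid, endothelial or immune markers. This gave 421 cells (229, 111 and 81), with median totals of 16614, 17138 and 14955 UMIs. The doublet caller marked 12.8% of them. Their definition was tightened after values had been seen. The surface cells were not filtered for erythroid, endothelial or immune markers, and 10, 11 and 13 of them carried such markers. Of the erythroid genes tested, 6 of 6 at E12.5, 0 of 6 at E13.5 and 6 of 7 at E14.5 were higher in the surface cells. Of 5343 genes tested in all 3 libraries, 43 were higher in the cycling surface epithelium in all 3 (0.805%) and 79 were lower (1.48%). Without the cells with a Y-linked UMI, the counts were 36 and 66. Without the E14.5 library, 69 of 5492 genes were higher (1.26%) and 134 lower (2.44%) in both other libraries.

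The shared condition did not make the cell cycle alike in both groups. The S phase genes summed to 4019, 3392 and 4116 CPM in the surface cells against 2857, 2189 and 2987 CPM in the supporting cells. The G2/M genes summed to 8531, 7549 and 8982 CPM against 7397, 5280 and 6470 CPM. The surface cells were higher on both lists in every library, with exact Poisson intervals that did not overlap, and also on the 5 cycle genes of the selection. The part of this gap in the ratios below was not tested.

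Surface epithelial markers were among the higher genes. Of 10 tested, 6 were higher (Tmem151a, Lrrn4, Bnc1, Ildr2, Aldh1a2 and Crb2), also without the cells with a Y-linked UMI. Of 39 S phase genes and 47 G2/M genes tested, 0 passed the rule in all 3 libraries, although their medians lay above 0 in each, at 0.48, 0.64 and 0.46 and at 0.20, 0.52 and 0.49 on the log2 scale. In single libraries 4 S phase genes and 1 G2/M gene passed at E13.5, and 2 and 3 at E14.5, all higher in the surface cells. Bnc1, the zinc finger protein basonuclin, stood at 40.9, 44.9 and 36.1 CPM in the surface cells against 13.1, 17.1 and 6.26 CPM in the supporting cells. Aldh1a2 stood at 163, 162 and 169 CPM against 45.8, 65.5 and 47.0 CPM. Ezr, the actin linker ezrin of apical membranes, stood at 80.2, 67.6 and 90.5 CPM against 23.8, 26.6 and 25.1 CPM. The markers were fixed with the label of the cells, so their direction follows from the choice of the 2 groups.

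The 12 higher genes with the largest smallest ratio were Kif26b, Fbln2, Lrrn4, Cpz, Tmem108, S100a6, Aplp1, Tmem151a, Myrf, Fah, Hspa2 and Frem2. Kif26b, a kinesin family member, stood at 51.6, 59.6 and 35.1 CPM against 8.42, 6.17 and 7.05 CPM. Tmem108, a membrane protein, stood at 122, 124 and 140 CPM against 26.5, 29.9 and 22.7 CPM. Myrf, a membrane-bound transcription factor with a known part in coelomic epithelium, stood at 106, 134 and 79.5 CPM against 28.2, 26.6 and 16.4 CPM. For each of these genes every surface value lay above every supporting value.

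The genes lowest against supporting cells included Gm2044, Bst2, Akr1cl, Fndc5, Phlda1, Msx1, Gm14226, Gstm6, Neat1 and Rmst. Bst2, the membrane protein tetherin, stood at 9.87, 8.51 and 11 CPM in the surface cells against 124, 139 and 161 CPM in the supporting cells. Msx1, a homeobox factor, stood at 14.4, 6.98 and 4.68 CPM against 92.6, 60.8 and 32.1 CPM. Among list members, Cdkn1b, the inhibitor p27 of pregranulosa cells, was lower at 19.3, 17.2 and 20.04 CPM against 81.2, 62.2 and 95.5 CPM, and so was Inha, the inhibin alpha subunit, at 6.22, 9.82 and 11.4 CPM against 36.4, 26.1 and 44.6 CPM.

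**Figure D3:**
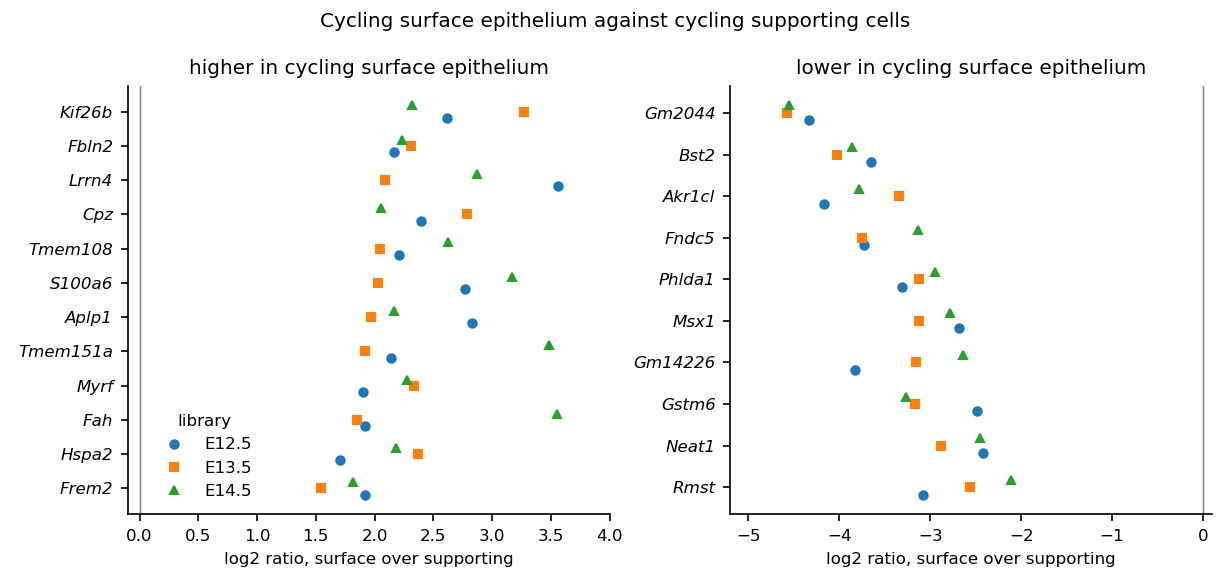
Log2 ratio of cycling surface epithelium over cycling supporting cells (x axis) for the genes named in each direction (y axis), with 1 symbol per library. Each gene lies past a ratio of 2 in all 3 libraries, with Bst2 at -3.65, -4.03 and -3.86 and Kif26b at 2.62, 3.27 and 2.32.

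Several genes that were higher in supporting cells lay closer between the groups at E14.5 than at E12.5. Others, such as Bst2 and Cdkn1b, did not. The log2 ratio of surface over supporting cells was -3.00, -1.76 and -0.54 for Cdkn1a and -1.57, -1.27 and -0.22 for Cdkn1c. It was -1.56, -0.95 and -0.26 for Bmp2, a BMP ligand, and -3.53, -2.89 and -1.22 for Gng13. In Cdkn1c both sides moved, since the supporting cells stood at 1830, 1635 and 1392 CPM while the surface cells stood at 616, 677 and 1195 CPM. Interstitial genes also moved in the supporting group at E14.5, with Ptn at 75.5, 86.0 and 386 CPM and Col1a1 at 23.0, 32.8 and 218 CPM, and their part in these ratios was not tested.

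In the cycling surface epithelium keratins, an R-spondin receptor, a retinaldehyde dehydrogenase and Cdkn1a stood higher in the E14.5 library than at E12.5. Hmga2, Crabp2, Lef1 and several immediate early genes stood lower. Many of the genes that differed between these stages did so in the other groups too, as given below. By the same rule of size, 150 of 5905 genes tested were higher at E14.5 (2.54%) and 36 were lower (0.61%), with a median log2 ratio over all genes of 0.01. Without the cells with a Y-linked UMI, 157 were higher and 40 lower. Of the lists described below, the Y-linked cells changed the counts of called genes only in the surface epithelial list, where 4 of 11 were then higher. Between successive stages, E13.5 against E12.5, which does not use the E14.5 library, gave 19 higher (0.335%) and 29 lower (0.511%) of 5680 genes, and E14.5 against E13.5 gave 86 higher (1.46%) and 49 lower (0.833%) of 5883. The 5 cycle genes of the selection were at like levels in all 3 libraries, with Top2a at 604, 514 and 600 CPM.

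All 3 keratins tested were higher at E14.5. Krt8 stood at 70.9, 93.4 and 237 CPM, and the log2 ratio of the last stage over the earliest was 1.74 (95% interval 1.58 to 1.90). Krt18 stood at 124, 138 and 263 CPM (1.08, 0.94 to 1.21), and Krt14, a keratin of basal cells, at 14.9, 20.1 and 32.1 CPM (1.10, 0.71 to 1.5). Most of the difference came after E13.5. Krt8 in cycling supporting cells stood at 84.9, 95 and 114 CPM, so that the cycling surface cells lay below them at E12.5 and above them at E14.5. Non-cycling surface cells had the highest levels, at 107, 134 and 352 CPM.

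Among 12 surface epithelial markers tested, 5 were higher at E14.5 and 0 lower: Krt8, Krt18, Aldh1a1, Nkain4 and Cldn15. The list median was 0.06, since Aldh1a2, Bnc1, Lrrn4 and Tmem151a had log2 ratios of 0.05, -0.18, 0.06 and 0.05. Aldh1a1, a second retinaldehyde dehydrogenase, stood at 15.4, 23.6 and 67.1 CPM (2.13, 1.80 to 2.45). Cldn15, a claudin that forms cation channels, stood at 6.58, 11.1 and 24.4 CPM (1.89, 1.37 to 2.42). Epcam, an epithelial adhesion molecule from the junction list, stood at 11.51, 13.1 and 26.7 CPM (1.22, 0.77 to 1.66). All of these were at their highest at E14.5.

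Of 11 genes of Wnt signalling tested, 1 rose and 1 fell. Lgr5, the R-spondin receptor, stood at 9.16, 15.9 and 47.1 CPM (2.36, 1.95 to 2.78), after 2.91 CPM at E11.5. A UMI of Lgr5 was found in 4.68%, 8.21% and 17.1% of cells after thinning and in 11%, 18.6% and 39.2% at full depth. Endothelial cells, which should lack it, had one in 2.37%, 10.3% and 16.4% at full depth (median totals of 16126, 11934.5 and 13401 UMIs). Each full-depth share in the surface cells stood above that of the endothelial cells. The surface cells were deeper at E13.5, with a median of 15025 UMIs, and the part of depth in this was not tested. Lef1, a transcription factor that responds to Wnt, stood at 87.5, 56.1 and 36.1 CPM (-1.28, -1.58 to -0.99). Axin2, a common Wnt target, stood at 74.6, 58.0 and 61.8 CPM and Rspo1, the ligand of Lgr5, at 60.1, 120 and 104 CPM, both short of the rule.

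Among 6 retinoid genes tested, Aldh1a1 rose and Crabp2, a carrier of retinoic acid to the nucleus, fell from 59.7 CPM at E12.5 to 48.7 and 16.7 CPM (-1.84, -2.29 to -1.42). Of 15 gonadal factors tested, 2 fell and 0 rose, with a list median of -0.28. They were Hmga2, a chromatin protein of fetal progenitor cells, at 763, 567 and 267 CPM (-1.52, -1.62 to -1.41), and Sox11, an HMG-box factor, at 292, 251 and 145 CPM (-1.01, -1.16 to -0.86). Summed over the whole library Hmga2 stood at 316, 213 and 61.0 CPM. That sum also follows the mix of cells. Germ cells were 789 of 4842 cells at E12.5 and 2659 of 4787 at E14.5. Their part in the lower Hmga2 sum was not tested. Gata4 stood at 88.1, 104 and 76.8 CPM and Nr5a1, the steroidogenic factor, at 30.8, 43.4 and 38.1 CPM, neither past the rule.

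**Figure D4:**
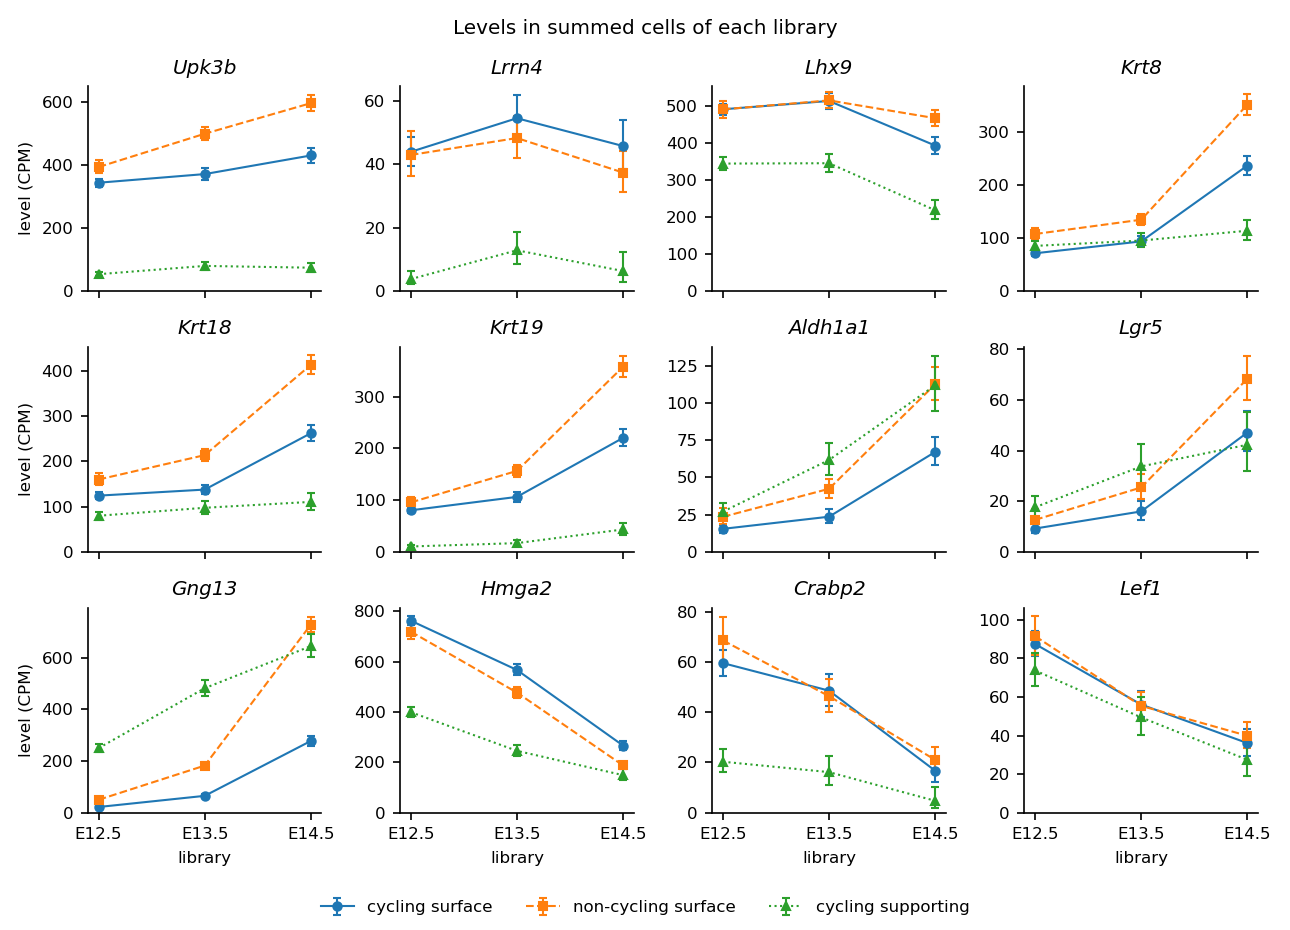
Levels (CPM, y axes from 0) of 12 genes in each library (x axes) for cycling surface, non-cycling surface and cycling supporting cells; points are sums over cells and bars exact Poisson 95% intervals. Krt8, Krt18, Krt19, Aldh1a1, Lgr5 and Gng13 are highest at E14.5 in the cycling surface cells (Krt8 at 237 CPM), and Hmga2, Crabp2 and Lef1 are lowest there (Hmga2 at 267 CPM).

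Of 11 G1 regulators tested, 1 rose. Cdkn1a stood at 5.29, 11.3 and 29.1 CPM (2.46, 1.92 to 3.01). Cdkn1c, at 616, 677 and 1195 CPM, had a log2 ratio of 0.96 (0.89 to 1.02) and Ccnd2, at 187, 225 and 345 CPM, of 0.89 (0.77 to 1.00), and neither reached a ratio of 2. Of 42 S phase genes and 47 G2/M genes tested, 0 passed the rule in either direction, and each list had a median of 0.06. The selection asked for at least 3 of the 5 cycle genes at both stages. How far the likeness of these lists follows from that was not tested, so it cannot set the Cdkn1a difference apart from the cycle.

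Of 11 interstitial genes tested, 4 were higher at E14.5 and 0 lower, with a list median of 0.53. Dcn, the proteoglycan decorin, stood at 74.7, 117 and 233 CPM (1.64, 1.48 to 1.80), and Col1a1, a chain of type I collagen, at 26.2, 49.5 and 95.2 CPM (1.86, 1.60 to 2.12). Mgp, matrix Gla protein, stood at 9.98, 30.5 and 51.8 CPM (2.37, 1.98 to 2.77), and Islr was the other. In cycling supporting cells 7 of 12 interstitial genes were higher at E14.5, and in non-cycling surface cells 3 of 10 were higher and 1 lower. Acta2, smooth muscle actin, stood at 6.81, 30.8 and 138 CPM (4.34, 3.94 to 4.76), while the pericyte marker Rgs5 stood at 2.70, 1.75 and 0.668 CPM.

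The genes with the highest ratios, among those at or above the level of their library, included Hbb-bs, Svs5, Hbb-bt, Acta2, Cst12, Alas2, Gng13, Hba-a2, Angptl7 and Hba-a1. Among these, 5 are erythroid genes. Hbb-bs, an adult beta globin, stood at 93.6, 149 and 5873 CPM (5.97), and without the cells that carried erythroid, endothelial or immune markers its log2 ratio was 3.74. For Alas2, the haem synthesis enzyme of red cells, the ratio went from 4.09 to 0.00 without those cells. The alpha globin genes Hba-a1 and Hba-a2 are near-identical copies, so their reads may be split between them. Hbb-y, an embryonic globin, stood at 993, 370 and 73.8 CPM.

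Svs5, Acta2, Cst12, Angptl7 and Gng13 kept their ratios without those cells, and the counts over all genes were then 155 higher and 33 lower. Svs5, a seminal vesicle secretory protein, stood at 0.470, 3.27 and 27.7 CPM (5.88, 4.47 to 7.79). Cst12, a cystatin, stood at 2.82, 10.5 and 53.8 CPM (4.25, 3.63 to 4.94), and Angptl7, an angiopoietin-like secreted protein, at 2.82, 10.3 and 31.1 CPM (3.46, 2.80 to 4.17). Gng13 stood at 21.6, 64.8 and 277 CPM (3.68, 3.45 to 3.92). Angptl7 stood at 0.495, 0.95 and 0.783 CPM in cycling supporting cells, whereas Cst12, at 16.3, 29.9 and 106 CPM, and Gng13, at 249, 482 and 644 CPM, were higher there at each stage.

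The 12 genes with the lowest ratios were Atf3, Nr4a1, Asb4, Crabp2, Pcdh7, Erdr1, Nr2f1, Hmga2, Dusp6, Egr1, Lef1 and Cyr61. Nr2f1, an orphan nuclear receptor, stood at 30.2, 21.6 and 9.69 CPM (-1.64, -2.25 to -1.08), and Asb4 at 59.9, 36.7 and 14.4 CPM (-2.06, -2.54 to -1.61). Dusp6, a phosphatase that limits ERK signalling, stood at 30.3, 24.7 and 10.7 CPM (-1.50, -2.08 to -0.97). Each of the 12 genes was lowest at E14.5 among these 3 stages.

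Of 8 immediate early genes tested, 5 were lower at E14.5 (Fos, Junb, Egr1, Atf3 and Dusp1) and 0 higher, with a list median of -1.15. Egr1, a zinc finger factor induced within minutes by many signals, stood at 274, 223 and 107 CPM (-1.36, -1.54 to -1.19), and Fos, a subunit of AP-1, at 529, 381 and 219 CPM (-1.27, -1.39 to -1.15). Atf3, a stress-induced factor, stood at 57.0, 17.9 and 9.69 CPM (-2.56, -3.15 to -2.01). Levels at E11.5 were nearer to those of E14.5 than of E12.5, with Egr1 at 68.4 CPM and Fos at 229 CPM. Over all cells Egr1 stood at 70.9, 176, 179 and 54.6 CPM from E11.5 to E14.5, a sum that also follows the mix of cells in each library.

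**Figure D5:**
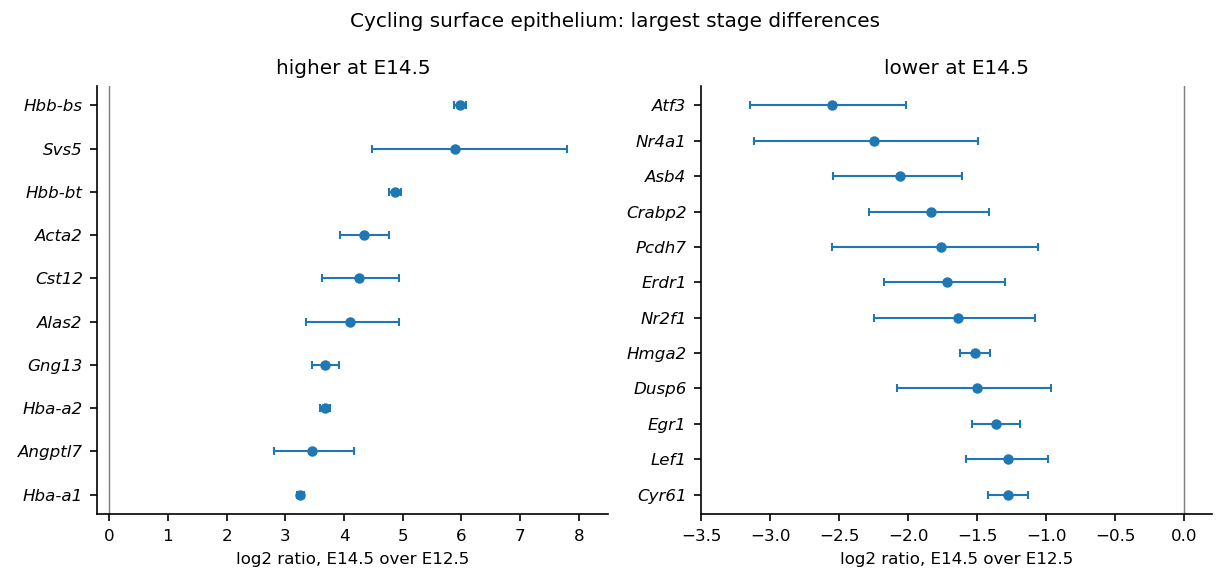
Log2 ratio of E14.5 over E12.5 in cycling surface epithelium (x axis) with 95% intervals for the genes named in each direction (y axis). Adult globins and Alas2 stand among the higher genes (Hbb-bs at 5.97) beside Svs5, Acta2, Cst12 and Gng13, and Atf3 is the lowest at -2.56.

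The same stages can be read beside the other cells of the libraries, with which these comparisons share embryos and depth. Non-cycling surface cells had 204 genes higher at E14.5 (3.51%) and 72 lower (1.24%) of 5818 tested, and cycling supporting cells 220 higher (3.62%) and 72 lower (1.19%) of 6075. Of the 150 genes higher in cycling surface cells, 100 were also higher by the rule in non-cycling surface cells and 61 in cycling supporting cells. The ratio had the same sign for 143 and 138 of them. Of the 36 lower genes, 23 and 13 were also lower by the rule, and 36 and 33 had the same sign. All 3 keratins tested were higher at E14.5 in non-cycling surface cells and 0 of 2 in cycling supporting cells. Lgr5 stood at 12.6, 25.4 and 68.4 CPM in non-cycling surface cells and at 17.6, 33.7 and 42.3 CPM in cycling supporting cells. Crabp2 stood at 68.7, 46.5 and 21.0 CPM and at 20.3, 16.1 and 4.70 CPM. Fewer UMIs were summed for the cycling surface cells at E14.5 than at E12.5, and a difference in calls between groups of unequal depth was not tested.

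Other lists showed few or no calls between the stages. BMP and TGF-beta signalling (9 tested), Notch signalling (2) and basement membrane genes (9) had 0 genes past the rule. Sparc, a matrix protein of basement membranes, stood at 592, 602 and 867 CPM, and Id3, a BMP-responsive inhibitor of helix-loop-helix factors, at 593, 477 and 347 CPM. Hes1, a Notch-responsive repressor, stood at 21.6, 34.5 and 39.4 CPM. Bmp2 stood at 32.3, 39.9 and 53.1 CPM.

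Supporting cell genes used in the selection can only be described. Wnt6, a Wnt ligand, stood at 40.8, 81.4 and 187 CPM in the cycling surface cells, Irx3, an Iroquois homeobox factor, at 13.4, 28.1 and 64.8 CPM, and Runx1, a runt-domain factor of pregranulosa cells, at 12.7, 21.2 and 34.7 CPM. Fst, follistatin, stood at 4.11, 6.33 and 7.68 CPM and Wnt4, the ovarian Wnt ligand, at 37.3, 39.5 and 36.1 CPM. The rule bounds the mean of these 5 genes from above in each cell, so their levels cannot be read as free of it.

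Against the earlier library, 73 of 5711 genes tested were higher at E12.5 than at E11.5 (1.28%) and 28 were lower (0.49%). Surface genes stood close, with Upk3b at 329 CPM and Lrrn4 at 40.7 CPM at E11.5, and Hmga2 stood at 792 CPM. Krt8 stood at 57.2 CPM, Aldh1a1 at 16.6 CPM, Gng13 at 8.72 CPM and Cdkn1a at 5.99 CPM. For these 4 genes the E11.5 and E12.5 levels lay closer, as a ratio, than those of E13.5 and E14.5.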

How the data were processed

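Per the labels' protocols, gonads of XX C57BL/6 embryos were digested to single cells and made into 10x 3′ libraries, 1 per stage. The submitters' processing notes name Cell Ranger 2.2.0 and mm10. The deposited values are on the natural log scale, read from the values as ln(1 + UMIs / total × 10000), and every UMI count was recovered from them. The plan had assumed UMI counts. All 4 libraries and 19387 cells were matched to stages by the prefix of the cell names. The genes, lists, members and comparisons were chosen with earlier results of these data known, and the supporting group and some alternatives after values had been seen.

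UMIs were summed per library and group and given as CPM with exact Poisson intervals, and each log2 ratio took its interval from the binomial share of 1 group in the summed counts (scipy 1.17.1, numpy 2.4.6). A count of 0 was set to a floor of 3 UMIs per group and library for ratios. With 1 library per stage no p-value was computed. The rule of size was tried on simulated sums with counting error only, which cannot speak to variation between cells, embryos or libraries. Genes are named as the 12 largest ratios in each direction (over stages, only those at or above the level of the whole library, which held for 127 of 150 higher and 32 of 36 lower genes; over libraries, by the smallest ratio; S and G2/M lists left out for the higher side of cycling against non-cycling), plus members of the lists. Doublets were called per library by Scrublet in scanpy 1.11.5 with an assumed rate of 0.06, and were kept outside the alternative that drops them. Cells were thinned to 5000 UMIs with a fixed seed where stated. E2F motifs were not reported, since too few S phase genes had a promoter in the table. Results for some genes that this rule picks are not reported here.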

Additional observations from a re-analysis of the deposited data

Results flagged for a closer look

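At E14.5, 20.7% of the cycling surface epithelial cells (45 of 217) had a UMI of a Y-linked gene (Ddx3y, Eif2s3y, Uty or Kdm5d), although the library is labelled XX, against 0 of 534 at E12.5, 0 of 280 at E13.5 and 0 of 645 at E11.5. These genes are outside the comparisons above. The share was 20.9% in non-cycling surface cells, 30.9% in cycling supporting cells, 18.2% in germ cells and 19.5% over all cells of that library. The median Xist count was 32 UMIs in the cycling surface cells with a Y-linked UMI and 32 in those without.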

How the results depend on the processing

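Across the alternatives tried, 74 main values stayed within their limits and 31 moved. The main values are shares and counts, for which a turn of direction was not defined. Of values of named genes 700 stayed and 56 moved, and of list sums 257 stayed and 20 moved. The cycling shares at E12.5, E13.5 and E14.5 moved with the depth and the cycle condition. They were 50%, 30.3% and 31.0% with the whole selection on cells thinned to 5000 UMIs, 53.0%, 33.3% and 32.8% with the cycle genes alone thinned, and 55.1%, 34.8% and 32.5% with at least 4 cycle genes. With the common minimum of UMIs, E13.5 and E14.5 stood at 49.1% and 52.7%.

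For E14.5 against E12.5, 305 genes were higher and 98 lower with no CPM minimum, and 34 and 6 with a ratio of at least 4. In cycling against non-cycling cells a ratio of at least 4 left 106 genes higher and 0 lower. The 1 lower gene became 2 after thinning, with at least 4 cycle genes, with no CPM minimum without the E14.5 library or its Y-linked cells, and 3 with the mean over cells. Against cycling supporting cells, thinning gave 25 higher and 33 lower, at least 4 cycle genes gave 46 lower, the looser supporting definition gave 65 higher, leaving out the E14.5 library gave 69 and 134, and a ratio of at least 4 gave 6 and 14. Thinning changed only which cells were selected, and the UMIs summed for these counts stayed at full depth. The selected groups shrink under thinning, to 274, 162 and 159 cycling surface cells and 68, 25 and 32 cycling supporting cells. Median-of-ratios scaling shifted no comparison by more than 0.041 (log2). Dropping called doublets kept every count and share within its limits. No paired analysis was possible because each stage is 1 library and the results come from no test. Depth limits genes below about 20 CPM, and no alternative speaks to variation between embryos or libraries.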
